A study of Homo sapiens with 44 samples.

Results

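The knockdown of IRF2BP2 in dexamethasone-treated A549 cells was described from 6 of the 44 samples of the series: 3 siIRF2BP2 dex replicates and 3 siNON dex replicates, taken by their sample labels. A549 is a human lung adenocarcinoma line of alveolar epithelial origin. Cells were kept in steroid-depleted medium and transfected with RNAiMAX for 72 h with 20 nM of 1 siRNA pool, either against IRF2BP2 (siIRF2BP2) or a non-targeting pool (siNON), so both groups carried a transfected siRNA. Both groups then received 100 nM dexamethasone (dex), a synthetic glucocorticoid, for 6 h before polyadenylated RNA was sequenced. Each group stood in the deposited table as 1 column of fragments per kilobase and per M mapped (FPKM) pooled over its 3 replicates, which left no measure of how the A549 replicates varied, and the authors' deposited log2 fold changes and false discovery rates (FDR) were used; the authors' test is not given in the sources used here, and the labels do not say whether replicates were separate cultures. In bulk RNA, fewer cells of a kind and less RNA per cell cannot be told apart. The same knockdown under vehicle (ethanol), under 10 ng/ml TNF and under dex plus TNF (6 samples each) was set beside it, as was the knockdown under dex in HEK293-GR cells.

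IRF2BP2 is a zinc finger and RING domain protein, found as a partner of the repressor IRF2, that acts in the nucleus as a transcriptional cofactor. Dex activates the glucocorticoid receptor, a ligand-dependent transcription factor that in lung epithelial cells induces genes of feedback, metabolism and ion transport and lowers many inflammatory genes. Signalling through the ERK kinases is known to induce immediate early genes.

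The pooled siIRF2BP2 dex column held 36.0 M tags and the siNON dex column 56.9 M. Of 25689 symbols, 13778 had at least 1 read per M mapped in 1 of these columns and were counted as tested. FPKM in this table were scaled by the genomic span of a gene, introns included, so values are compared between groups and not between genes. Keratin and metabolic genes that mark A549 were all tested (10 of 10), with KRT18 at 1174 pooled FPKM in siIRF2BP2 cells and 1421 in siNON cells. Of 16 markers of blood, endothelial and fibroblast cells, 12 stayed under the limit of 1 read per M, and the summed FPKM of the 16 was 23.1 in siIRF2BP2 and 20.7 in siNON cells. Most of that sum was CD68, a lysosomal protein that many cell types express, at 15.6 and 16.6 pooled FPKM in the same order; whether other cells contributed to any result was not tested.

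IRF2BP2 itself was lower in the siIRF2BP2 column of every treatment. Its pooled FPKM was 22.9 in siIRF2BP2 dex cells and 31.3 in siNON dex cells, and the authors' deposited table gave a log2 fold change of -0.66 (FDR 2.48e-07). Under the other treatments the siIRF2BP2 and siNON columns held 26.3 and 29.7 FPKM with vehicle, 21.4 and 26.3 with TNF, and 17.9 and 25.4 with dex plus TNF. IRF2BP2 RNA thus remained in every siIRF2BP2 column, and the protein was not analysed here. The gene lies on the minus strand of chromosome 1, from 234740015 to 234745271 (build hg19). Of its relatives and partners, IRF2BPL, a paralog, rose to 26.7 FPKM in siIRF2BP2 dex cells, against 11.6 in siNON dex cells. IRF2, the repressor for which the family is named, had 0.398 and 0.213 FPKM, and VGLL4, a TEAD cofactor, 0.492 and 0.299 FPKM, siIRF2BP2 first. The log2 fold changes in the authors' deposited table were 1.08 for IRF2BPL, 0.81 for IRF2 and 0.59 for VGLL4, all called higher, while IRF2BP1 was not called (-0.00, FDR 1). The change of IRF2BPL under vehicle was smaller in the authors' deposited table, at 0.32; the difference between treatments was not tested.

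Under dex, 2660 of the 13778 tested genes (19.3%) were called lower in siIRF2BP2 cells and 2479 (18.0%) higher, by an FDR under 0.05 in the authors' deposited table. Changes of at least 2-fold were fewer and mostly falls: 499 genes (3.62%) were called lower by that much and 236 (1.71%) higher. The largest falls were those of the immediate early factor EGR1, the prostaglandin synthase PTGS2 and the stress cytokine GDF15 among others, and, among genes with at least 5 reads per M, the largest rises were those of AGT and ABCA1. The median log2 fold change over all tested genes was 0.01 in the authors' deposited table, and the median log2 ratio of the pooled FPKM was 0.10, so the FPKM ratios stood about that far above the authors' values. With a pseudocount of 0.01 in the FPKM ratio, all called genes had the same sign on both scales (100% of them; 86.8% of all tested genes).

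**Figure D1:**
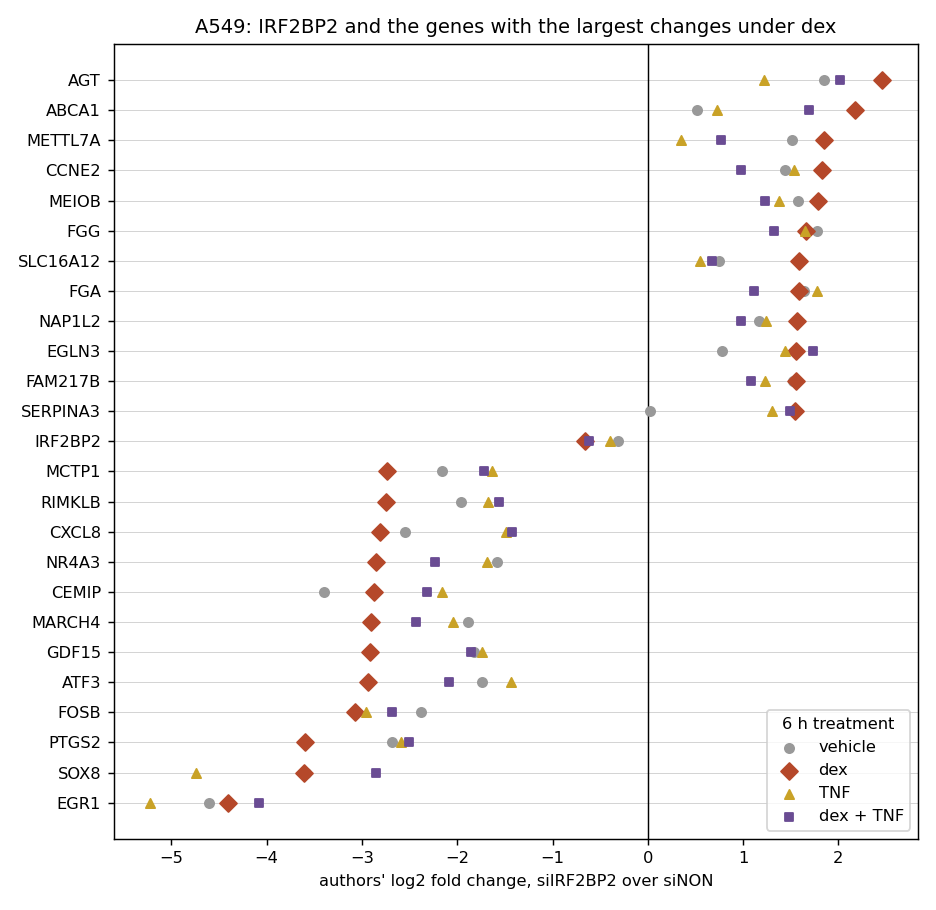
Authors' log2 fold change of siIRF2BP2 over siNON (x axis) for IRF2BP2 and for the 12 largest rises and 12 largest falls under dex (y axis, ordered by the dex value), with 1 point per 6 h treatment. All 12 falls lay below 0 under all 4 treatments, while SERPINA3 was at 0.02 under vehicle against 1.55 under dex.

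The 12 largest falls described here are those among protein-coding genes with at least 5 reads per M that do not lie mostly within another gene; IGF2, at -2.87 in the authors' deposited table, was left out for its overlap. EGR1, a zinc finger factor that growth factors switch on within minutes, had 0.944 pooled FPKM in siIRF2BP2 dex cells and 18.7 in siNON dex cells. That was 130 reads (exact Poisson 95% interval 108.6 to 154.4) against 4067 (3943 to 4194); such intervals cover counting error only. EGR1 held 1.29 and 28.6 FPKM under vehicle, 0.514 and 17.8 under TNF, and 0.891 and 14.4 under dex plus TNF, siIRF2BP2 first, so it was low with siIRF2BP2 whichever agent was given. The authors' deposited table gave EGR1 a log2 fold change of -4.41 under dex (FDR 1.04e-159). SOX8, a developmental transcription factor, had 0.097 and 1.14 FPKM, resting on 18 reads in siIRF2BP2 and 334 in siNON cells, with a log2 fold change of -3.61 in the authors' deposited table. GDF15, a secreted stress cytokine of the TGF-beta family, had 5.28 FPKM in siIRF2BP2 and 36.7 in siNON dex cells (log2 fold change -2.92 in the authors' deposited table). CEMIP, a hyaluronan-degrading protein, MARCH4, a membrane-bound ubiquitin ligase, RIMKLB, a ligase that joins glutamate to other acids, and MCTP1, a calcium-binding membrane protein, had log2 fold changes of -2.87, -2.90, -2.75 and -2.74 in the authors' deposited table. MARCH4 fell to 33 reads in siIRF2BP2 cells, against 376 in siNON cells. The 5 others of the 12 were PTGS2, FOSB, ATF3, NR4A3 and CXCL8, which are given with their groups.

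Immediate early genes, whose transcription growth factor and stress signals start without new protein, were lower almost throughout. Of 20 tested members 16 fell, 0 rose and 4 were not called, and the median log2 fold change was -1.62 in the authors' deposited table, against 0.01 over all genes tested. 13 of the 16 fell at least 2-fold. Among the AP-1 subunits, FOS had 13.9 FPKM in siIRF2BP2 and 44.05 in siNON dex cells, FOSB 0.178 and 1.44, and JUN 12.1 and 58.0. Their log2 fold changes in the authors' deposited table were -1.82, -3.08 and -2.41, FOSL1 changed by -1.68, JUND by -1.25 and FOSL2 by -0.36, while JUNB was not called. All NR4A orphan nuclear receptors fell. NR4A1 had 3.05 FPKM in siIRF2BP2 and 18.3 in siNON dex cells, NR4A2 0.676 and 2.92, and NR4A3 0.109 and 0.707. In the authors' deposited table these were log2 fold changes of -2.66, -2.28 and -2.85, against -1.92, -0.83 and -1.59 under vehicle. ATF3, a stress-induced factor of the CREB and ATF family, had 0.432 and 2.93 FPKM, siIRF2BP2 first, and a log2 fold change of -2.94 in the authors' deposited table. NAB2, the corepressor that EGR1 itself induces, fell by 1.57 on the log2 scale, IER3 by 1.38 and SRF, the factor that binds CArG boxes, by 0.43, all in the authors' deposited table. MYC, NAB1 and KLF10 were tested and not called, and EGR2, EGR3 and EGR4 were under 1 read per M.

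**Figure D2:**
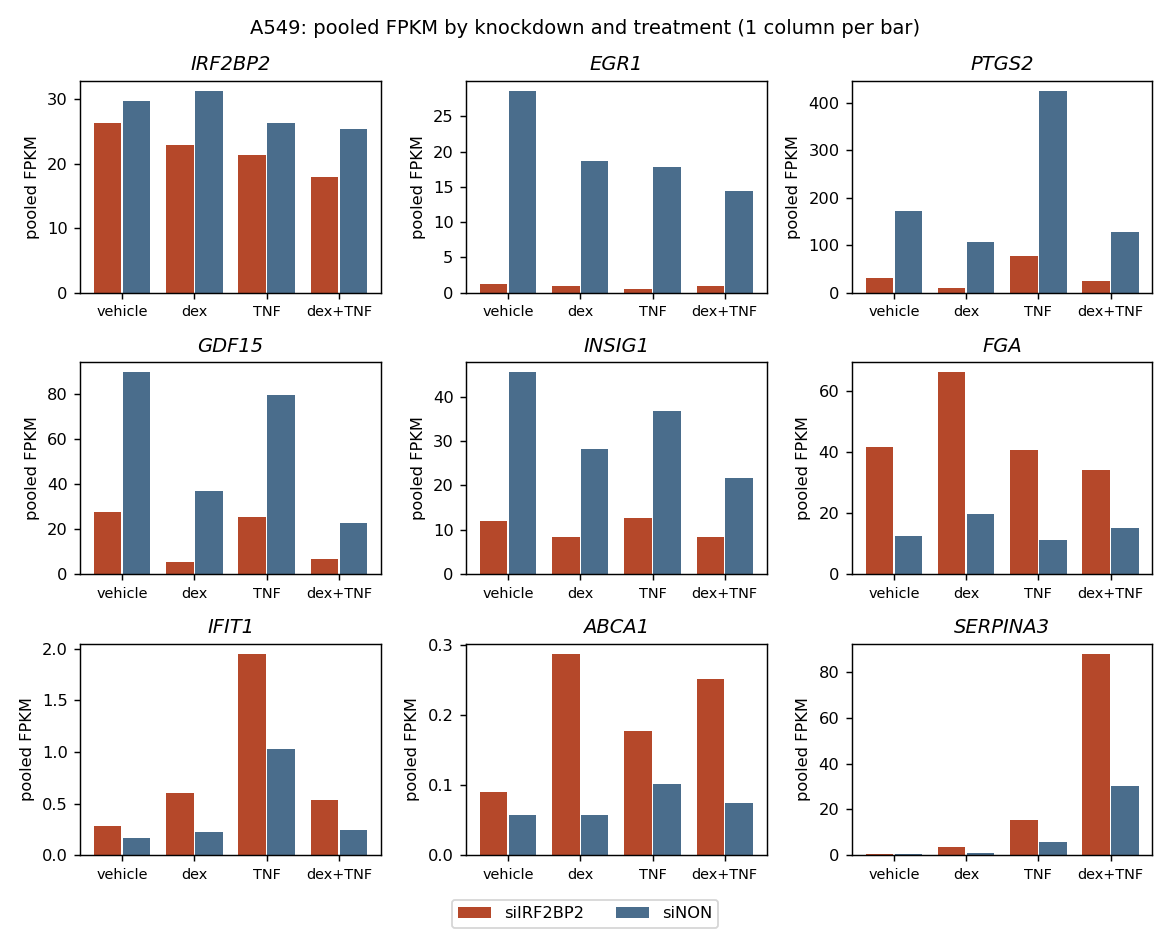
Pooled FPKM (y axis, from 0) of 9 genes in A549 cells, with siIRF2BP2 left of siNON for each 6 h treatment (x axis); each bar is 1 column pooled over 3 replicates, so there are no error bars. EGR1 stood at 0.514 to 1.29 FPKM in the siIRF2BP2 columns and at 14.4 to 28.6 in the siNON columns, and ABCA1 was at 0.287 and 0.058 FPKM under dex.

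Promoters of 4 of the genes that fell are shown, chosen for a match to an inducible element close to the start: EGR1, with CArG boxes, CXCL8, with an AP-1 motif, and AREG and DUSP8, with a cyclic AMP response element (CRE). Each is the 250 bases before the RefSeq gene start on build GRCh38.p14, 5′ to 3′ on the gene's strand, with motif letters in capitals. AP-1 was searched as TGANTCA, the CRE as TGACGTCA and the EGR motif as GCGNGGGCG, the CArG box by its standard serum response form, all on both strands, as were a TEAD motif (GGAATG) and the glucocorticoid response element by name, and these motifs overlapped nowhere in the 4 sequences. In the EGR1 promoter the capitals mark an EGR motif that begins 198 bases before the start and CArG boxes that begin 105 and 83 bases before it. In CXCL8 they mark the AP-1 motif that begins 137 bases before the start, in AREG the CRE that begins 65 bases before it, and in DUSP8 the CREs that begin 118 and 74 bases before it.
EGR1 (chr5:138465229-138465478, plus strand): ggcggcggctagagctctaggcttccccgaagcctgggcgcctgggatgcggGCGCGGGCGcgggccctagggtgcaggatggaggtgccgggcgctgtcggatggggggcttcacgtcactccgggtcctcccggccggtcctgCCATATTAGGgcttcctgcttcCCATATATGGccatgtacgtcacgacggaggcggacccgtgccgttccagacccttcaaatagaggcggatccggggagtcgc
CXCL8 (chr4:73740319-73740568, plus strand): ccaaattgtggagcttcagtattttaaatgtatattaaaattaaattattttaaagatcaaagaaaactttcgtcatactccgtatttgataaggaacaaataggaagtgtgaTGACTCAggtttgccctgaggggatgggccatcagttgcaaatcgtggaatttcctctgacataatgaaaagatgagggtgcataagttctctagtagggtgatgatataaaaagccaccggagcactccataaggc
AREG (chr4:74444886-74445135, plus strand): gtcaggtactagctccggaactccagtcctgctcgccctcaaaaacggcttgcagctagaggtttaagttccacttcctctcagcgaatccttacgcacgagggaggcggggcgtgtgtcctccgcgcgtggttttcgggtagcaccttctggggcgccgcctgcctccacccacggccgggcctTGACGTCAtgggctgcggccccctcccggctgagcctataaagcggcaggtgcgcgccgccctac
DUSP8 (chr11:1572272-1572521, minus strand): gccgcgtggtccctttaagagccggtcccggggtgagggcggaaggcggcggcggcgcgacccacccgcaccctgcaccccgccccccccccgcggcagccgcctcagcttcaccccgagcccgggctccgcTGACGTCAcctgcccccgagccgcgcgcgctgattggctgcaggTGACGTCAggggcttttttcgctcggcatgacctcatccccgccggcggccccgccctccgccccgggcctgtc
Over all 35116 promoters of the RefSeq table, 1.16% held a CArG box in these 250 bases, 6.57% the AP-1 motif, 1.65% the CRE 8.41% the EGR motif and 11.9% the TEAD motif. The genes searched were some of the immediate early genes and others picked by name, IRF2BP2 among them, and some had more than 1 promoter. The immediate early genes ARC, FOSL1, IER3 and NR4A2 also fell, but their promoters were not searched. Of 22 such genes called lower, 13 had a match to at least 1 motif and 9 had none: FOS, FOSB, FOSL2, JUN, ATF3, IER2, NR4A1, PTGS2 and TGFA. The share of all promoters with at least 1 of these motifs was not computed, so the count of 13 has no background beside it. A match describes letters in a window and says nothing of what was bound in these cells.

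Outputs and feedback inhibitors of the ERK pathway fell as a group. Of 16 tested genes 11 fell and 0 rose, with a median log2 fold change of -0.54 in the authors' deposited table, smaller than for the immediate early genes. EPHA2, a receptor tyrosine kinase, had 3.98 FPKM in siIRF2BP2 and 8.45 in siNON dex cells, ETV4, an ETS factor, 4.16 and 7.80, and SPRY4, a Sprouty inhibitor of the pathway, 1.43 and 2.34. Among the dual-specificity phosphatases that switch off MAP kinases, 8 of 10 tested members fell and 1 rose. The largest changes were those of DUSP8, at 0.643 and 3.52 FPKM in siIRF2BP2 and siNON dex cells, and DUSP10, at 0.127 and 0.483. The ERK phosphatases DUSP4 and DUSP6 had 15.1 and 28.1 FPKM and 8.62 and 16.4 FPKM, siIRF2BP2 first. In the authors' deposited table the log2 fold changes were -2.68 for DUSP8, -2.13 for DUSP10, -1.01 for DUSP4, -1.08 for DUSP6 and 0.39 for DUSP14, the member that rose. KLF zinc finger factors were also mostly lower, 8 of 13 tested members against 1 higher: KLF6 had 37.7 FPKM in siIRF2BP2 and 84.3 in siNON dex cells, KLF5 5.38 and 11.7, and KLF2 9.84 and 20.4.

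Several ligands of the EGF receptor family fell. EREG, encoding epiregulin, had 0.515 FPKM in siIRF2BP2 dex cells and 2.83 in siNON dex cells, TGFA 0.029 and 0.162, AREG, encoding amphiregulin, 0.149 and 0.460, and HBEGF 0.283 and 0.575. The log2 fold changes in the authors' deposited table were -2.69 for EREG, -2.60 for TGFA, -1.74 for AREG and -1.18 for HBEGF, and in all 5 of the 9 tested members of this family fell, NRG1 at -0.50 being the fifth. ERBB3, a receptor of the family, rose by 0.57 in the authors' deposited table, and the receptors EGFR and ERBB2 and the ligand BTC were not called. Of 13 tested genes of the insulin-like growth factor axis, 8 fell and 1 rose. The secreted binding protein IGFBP3 had 20.0 FPKM in siIRF2BP2 and 43.98 in siNON dex cells, IGFBP6 6.43 and 11.7, and the adaptor IRS2 8.12 and 14.4. IGF2 had 0.125 and 0.861 FPKM, siIRF2BP2 first, but its whole span lies within that of INS-IGF2, so the reads of these genes cannot be told apart.

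The inducible enzymes of prostaglandin synthesis fell. PTGS2, the cyclooxygenase that makes the common prostaglandin precursor and a classic target of glucocorticoid repression, had 10.6 FPKM in siIRF2BP2 dex cells and 106 in siNON dex cells. Under vehicle PTGS2 stood at 30.7 and 172 FPKM, under TNF at 76.7 and 424, and under dex plus TNF at 25.2 and 128, siIRF2BP2 first, so each siIRF2BP2 column was below each siNON column. The log2 fold change of PTGS2 in the authors' deposited table was -3.59 under dex (FDR 7.26e-95) and -2.69 under vehicle. PLA2G4A, the phospholipase that releases arachidonic acid, had 0.549 and 1.23 FPKM under dex, siIRF2BP2 first, and PTGES, a terminal prostaglandin E synthase, 2.95 and 4.06. PLA2G4A changed by -1.38 and PTGES by -0.55 in the authors' deposited table. Of 11 tested genes of the pathway 4 fell, 1 rose and 6 were not called, prostaglandin receptors PTGER2 and PTGER4 among the last.

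Chemokines were lower too. Of 8 tested, 6 fell, 0 rose and 2 (CXCL2 and CCL2) were not called, with a median log2 fold change of -0.90 in the authors' deposited table. CXCL8, the neutrophil attractant interleukin 8, had 1.72 FPKM in siIRF2BP2 dex cells and 10.7 in siNON dex cells, and CXCL5, a ligand of the same receptor, 47.9 and 129. With TNF, which induces it, CXCL8 stood at 175 and 447 FPKM, and with dex plus TNF at 86.9 and 211, siIRF2BP2 first. The log2 fold changes of CXCL8 in the authors' deposited table were -2.81 under dex, -2.55 under vehicle, -1.49 under TNF and -1.43 under dex plus TNF. Of 17 tested NF-kB subunits and feedback genes, 8 fell and 2 rose. RELB, a subunit of the non-canonical pathway, had 0.339 FPKM in siIRF2BP2 and 0.741 in siNON dex cells, NFKBIB, an inhibitor that holds the factor in the cytoplasm, 4.25 and 9.47, and BCL3, an atypical nuclear member of the inhibitor family, 21.9 and 7.69. BCL3 rose by 1.35 in the authors' deposited table, while NFKB1, RELA and NFKBIA were not called. Among cytokines of the IL1 and IL6 circuits, IL11 fell by 1.31 on the log2 scale and IL6ST, the shared signalling receptor of the IL6 family, rose by 0.47, both in the authors' deposited table, and IL6, IL1A, IL1B and TNF were under 1 read per M.

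**Figure D3:**
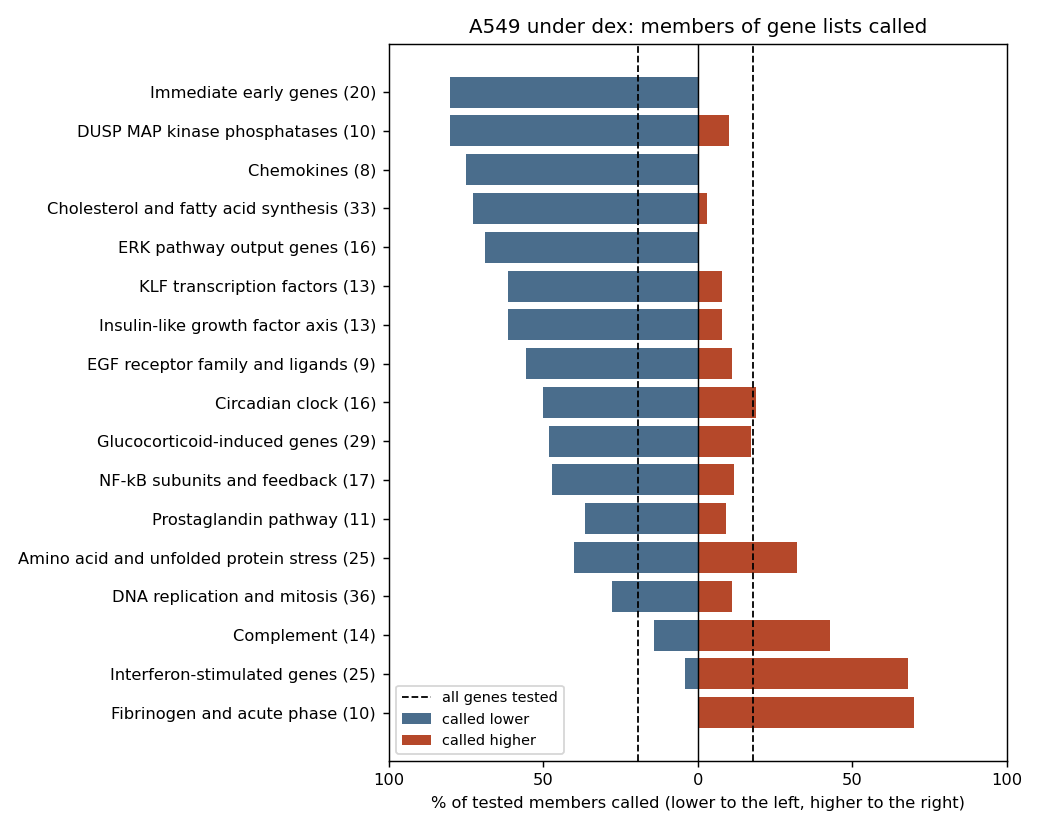
Share of the tested members of 17 of the 34 gene lists (number tested in brackets) called lower (left bars) or higher (right bars). The comparison is siIRF2BP2 against siNON cells under dex, by the authors' FDR under 0.05. Dashed lines mark the shares over all genes tested, 19.3% lower and 18.0% higher. Lists left out include hypoxia and mesenchymal genes, whose counts lay near or below these shares. Immediate early genes stood at 16 of 20 lower and the fibrinogen and acute phase genes at 7 of 10 higher.

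Cholesterol and fatty acid synthesis was lower along most of its length. Of 33 tested genes 24 fell, 1 rose and 8 were not called, with a median log2 fold change of -0.48 in the authors' deposited table. INSIG1, a sterol sensor that retains the regulators of this pathway, had 8.34 FPKM in siIRF2BP2 dex cells and 28.2 in siNON dex cells. SREBF2, which encodes the master transcription factor of the pathway, had 2.34 and 4.32 FPKM, siIRF2BP2 first. Among the enzymes, HMGCS1, an early enzyme of cholesterol synthesis, had 22.4 and 41.0 FPKM and the desaturase SCD 108 and 157. The log2 fold changes in the authors' deposited table were -1.96 for INSIG1, -0.96 for SREBF2, -1.09 for HMGCS1 and -0.70 for SCD. ACLY, which supplies cytosolic acetyl-CoA, was the member that rose (0.32 in the authors' deposited table). Under vehicle 26 of the 33 fell and 1 rose, with a median of -0.51 in the authors' deposited table.

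ABCA1, the transporter that exports cellular cholesterol to apolipoproteins, rose. It had 0.287 FPKM in siIRF2BP2 dex cells and 0.058 in siNON dex cells, which was 1522 and 486 reads. The siIRF2BP2 and siNON columns held 0.090 and 0.058 FPKM under vehicle, 0.177 and 0.102 under TNF, and 0.251 and 0.074 under dex plus TNF. The authors' deposited table gave a log2 fold change of 2.17 under dex and 0.52 under vehicle, and a dex response of 1.73 with siIRF2BP2 and 0.06 with siNON. Of 8 tested cholesterol efflux genes 2 rose, ABCA1 among them, 2 fell and 4 were not called. For so few genes these counts lay near the shares over all genes tested, 18.0% higher and 19.3% lower. APOE and ABCG1 fell, by 0.92 and 0.52 on the log2 scale in the authors' deposited table, and the receptor gene NR1H3, encoding LXR alpha, was not called.

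Fibrinogen chains and other secreted proteins were among the rises. AGT, the angiotensin precursor, had 1.22 FPKM in siIRF2BP2 dex cells and 0.198 in siNON dex cells, with the largest rise of those chosen by size (2.46 in the authors' deposited table, FDR 1.75e-42). The fibrinogen chains rose together: FGA had 65.9 FPKM in siIRF2BP2 and 19.7 in siNON dex cells, FGG 23.6 and 6.46, and FGB 25.4 and 10.7. Under vehicle FGA had 41.6 and 12.5 FPKM and FGG 21.4 and 5.69, siIRF2BP2 first, so the difference was present without dex. SERPINA3, the acute phase inhibitor antichymotrypsin, had 3.62 FPKM in siIRF2BP2 and 1.19 in siNON dex cells, 15.3 and 5.91 with TNF, and 87.8 and 30.2 with dex plus TNF. Its vehicle columns held 0.740 and 0.700 FPKM, close together and far below those with both agents. Of 10 tested fibrinogen and acute phase genes 7 rose, 0 fell and 3 (SERPINA1, TF and ALB) were not called, with a median log2 fold change of 1.27 in the authors' deposited table. Of 14 tested complement genes 6 rose and 2 fell: the classical pathway protease C1S had 17.6 FPKM in siIRF2BP2 and 9.40 in siNON dex cells and the alternative pathway factor CFB 4.23 and 2.02, while CD55, which protects cells from complement, had 2.27 and 7.17. Among genes of clotting, THBD, the thrombin receptor thrombomodulin, had 61.0 and 22.9 FPKM, TFPI2, a protease inhibitor, 35.0 and 15.6, and PLAUR, the urokinase receptor, 0.815 and 1.82, siIRF2BP2 first. The log2 fold changes in the authors' deposited table were 1.30 for THBD, 1.01 for TFPI2 and -1.24 for PLAUR.

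The other genes among the 12 largest rises had varied roles. METTL7A, a methyltransferase-like protein of the endoplasmic reticulum, had 1.99 FPKM in siIRF2BP2 and 0.492 in siNON dex cells. CCNE2, a cyclin of the entry into DNA replication, had 0.482 and 0.121, EGLN3, an oxygen-sensing prolyl hydroxylase, 0.660 and 0.199, and NAP1L2, a nucleosome assembly protein, 3.25 and 0.998, siIRF2BP2 first. MEIOB, a meiotic DNA-binding protein, SLC16A12, a monocarboxylate transporter family member, and FAM217B had log2 fold changes of 1.79, 1.59 and 1.55 in the authors' deposited table. The 12 rises ran up to 2.46 and the 12 falls down to -4.41 in the authors' deposited table. Part of the spans of FAM217B (23.3%), MEIOB (16.3%) and SLC16A12 (11.6%) lies within that of another gene.

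Interferon-stimulated genes, which defend cells against viruses and are driven by a complex that holds STAT2 and IRF9, were higher. Of 25 tested genes 17 rose, 1 fell and 7 were not called, with a median log2 fold change of 0.81 in the authors' deposited table. IFIT1, an RNA-binding inhibitor of viral translation, had 0.608 FPKM in siIRF2BP2 dex cells and 0.222 in siNON dex cells, IFIH1, a cytoplasmic sensor of double-stranded RNA, 0.138 and 0.045, and SAMD9L, an antiviral restriction factor, 0.224 and 0.055. The partners DTX3L and PARP9, which modify chromatin proteins in the same pathway, had 4.25 and 1.83 FPKM and 1.06 and 0.388 FPKM, siIRF2BP2 first. Of the factors themselves, IRF9 had 5.34 FPKM in siIRF2BP2 and 2.91 in siNON dex cells, STAT2 1.54 and 1.123, and IRF1 2.30 and 1.501. These factors had log2 fold changes of 0.81 for IRF9, 0.37 for STAT2 and 0.55 for IRF1 in the authors' deposited table. OAS1, a sensor of double-stranded RNA, was the member that fell, to 4.80 FPKM in siIRF2BP2 dex cells, against 7.81 in siNON dex cells. Under vehicle 13 of the 25 rose and 2 fell, with a median of 0.33 in the authors' deposited table. MHC class I presentation genes were mostly not called under dex (3 higher and 1 lower of 15 tested). Over all genes tested under dex 18.0% rose and 19.3% fell, so the MHC rises lay near that share.

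Genes known to be induced by glucocorticoids were lower more often than higher. With dex, 28 of the 29 tested were called higher with siIRF2BP2 and 28 with siNON, by the authors' deposited table. The share of all tested genes raised by dex was not computed, so these counts have no background beside them. Between the siRNAs under dex, 14 of the 29 fell, 5 rose and 10 were not called, with a median log2 fold change of -0.34 in the authors' deposited table. Under vehicle 17 of the 29 fell and 2 rose, with a median of -0.62 in the authors' deposited table. Over all genes tested, 21.1% fell and 18.9% rose under vehicle. Of the 14 that fell under dex, all but KLF9 and ERRFI1 were called lower under vehicle too. KLF9 changed by -0.82 under dex and -0.24 under vehicle, and ERRFI1 by -0.62 and -0.09, in the authors' deposited table. ZFP36, an mRNA-decay factor that limits inflammation, had 78.5 FPKM in siIRF2BP2 dex cells and 172 in siNON dex cells, against 29.9 and 63.0 under vehicle. DUSP1, the anti-inflammatory phosphatase, had 186 and 295 FPKM under dex and 46.0 and 64.9 under vehicle, and PDK4, a brake on pyruvate oxidation, 45.5 and 96.3 under dex and 19.4 and 35.1 under vehicle, siIRF2BP2 first. So these genes were below siNON cells with and without dex, at a higher level in both with dex. TSC22D3, encoding the glucocorticoid-induced leucine zipper, had 5.15 and 6.61 FPKM under dex and 0.450 and 1.06 under vehicle, and PER1 13.3 and 24.0 under dex and 1.40 and 5.85 under vehicle. The knockdown log2 fold changes in the authors' deposited table were -0.53 under dex and -1.40 under vehicle for TSC22D3 and -0.88 and -2.12 for PER1. FKBP5 and SGK1, both standard markers of receptor activity, were not called. KLF15, a metabolic zinc finger factor, went the other way: it had 0.326 FPKM in siIRF2BP2 and 0.145 in siNON dex cells, against 0.007 and 0.033 under vehicle. KLF15 stayed under 5 reads per M in both dex columns and was lower still under vehicle, so its vehicle values rest on few reads. Of 18 tested genes for the receptor, its coregulators and its chaperones, 8 fell and 3 rose, none by 2-fold. Over all genes tested under dex 19.3% fell and 18.0% rose, so these rises lay near that share. The receptor gene NR3C1 was among the 8, with an authors' log2 fold change of -0.26 (authors' FDR 0.0284). With vehicle its value was 0.16 and it was not called (authors' FDR 0.186). The coactivator NCOA3 fell by 0.91 and the corepressor NRIP1 rose by 0.68 in the authors' deposited table.

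**Figure D4:**
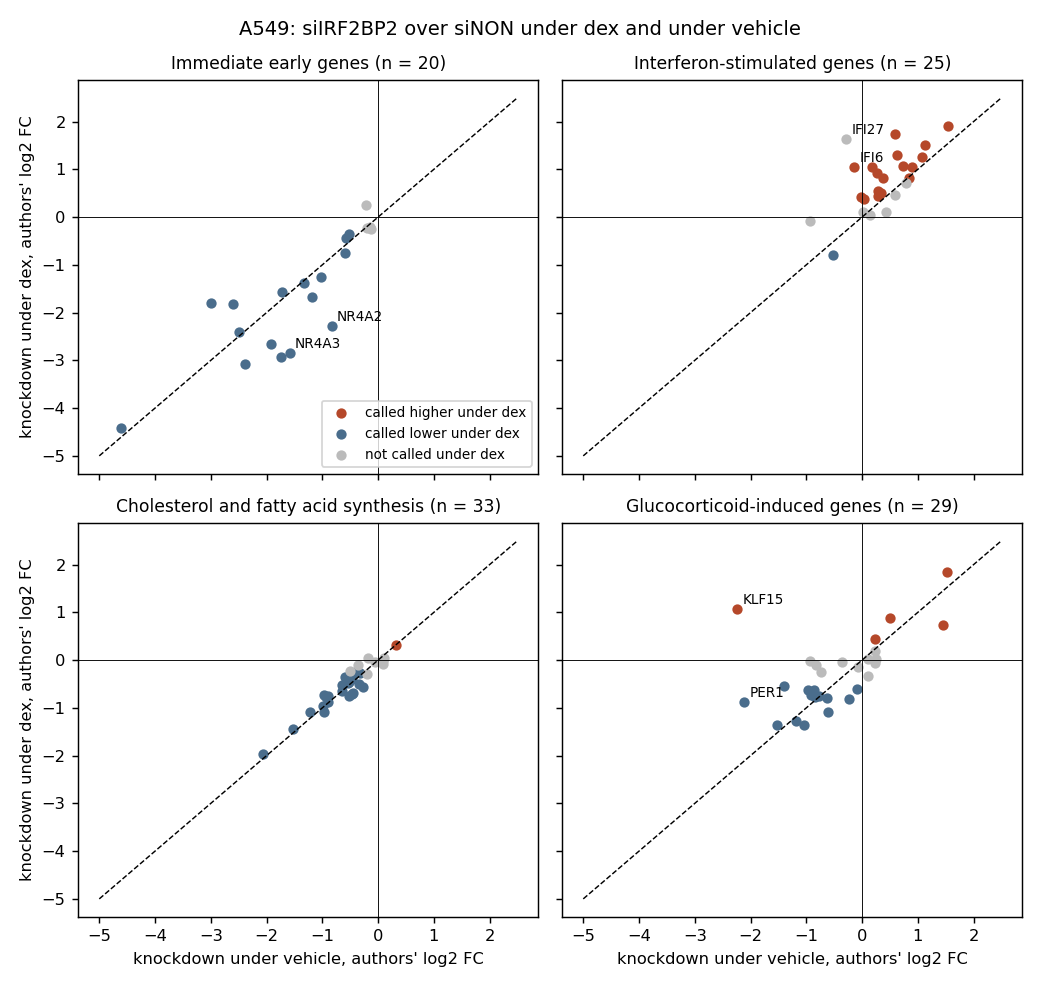
Authors' log2 fold change of siIRF2BP2 over siNON under dex (y axis) against that under vehicle (x axis) for the tested members of 4 lists, 1 point per gene, coloured by the call under dex; the dashed line marks equal values. Immediate early genes lay at a median of -1.62 under dex and -1.25 under vehicle, interferon-stimulated genes at 0.81 and 0.33, and glucocorticoid-induced genes at -0.34 and -0.62. KLF15, under 5 reads per M in both dex columns, is the induced gene above 0 under dex and below 0 under vehicle.

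Core clock genes fell more often than they rose. NR1D1, encoding the repressor REV-ERB alpha, had 1.36 FPKM in siIRF2BP2 dex cells and 8.45 in siNON dex cells, and its relative NR1D2 0.869 and 2.09. PER3 had 0.078 and 0.165 FPKM, CIART, another repressor, 0.737 and 1.65, and CRY2, a cryptochrome, 1.59 and 0.847, siIRF2BP2 first. Of 16 tested clock genes 8 fell and 3 rose, and the activators ARNTL and CLOCK were not called. Over all genes tested 19.3% fell and 18.0% rose, so the rises lay near the share over all genes. Under vehicle 8 of the 16 clock genes fell and 0 rose. The fall of NR1D1 was -2.71 in the authors' deposited table under dex and -2.75 under vehicle; 13.6% of its span lies within that of another gene, and the library kit is not stated to keep strand.

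Stress genes moved in both directions. ATF4, the factor of the amino acid response, had 118 FPKM in siIRF2BP2 and 172 in siNON dex cells, its targets ASNS 1.14 and 1.96 and SLC7A11, the cystine transporter, 0.940 and 2.21. XBP1, a factor of the unfolded protein response, had 30.5 and 15.3 FPKM, and the endoplasmic reticulum proteins DNAJB9 12.5 and 5.53 and MANF 22.8 and 11.7, siIRF2BP2 first. Together 10 of 25 tested stress genes fell and 8 rose; HSPA5, the main chaperone of that compartment, fell by 0.70 in the authors' deposited table while DNAJB9 rose by 0.99 and MANF by 0.85. DDIT3, a stress-induced factor of cell death, rose by 0.47 and DNAJC3, a co-chaperone, fell by 0.45 in the authors' deposited table, and TRIB3, CHAC1, SDF2L1, CALR, EDEM1, SEL1L and VLDLR were not called. Of 36 tested genes of DNA replication and mitosis, 10 fell and 4 rose, with a median log2 fold change of -0.19 in the authors' deposited table. CCNE2 and RRM2, a subunit of the enzyme that makes deoxynucleotides, were among those that rose, and MKI67, TOP2A and CCNB1 were not called. NRF2 targets, high in A549, fell in 10 of 22 tested cases and rose in 0, NQO1 to 59.9 FPKM in siIRF2BP2 dex cells, against 86.0 in siNON dex cells. Under vehicle 4 of the 22 were called lower and 7 higher; the difference between treatments was not tested. Of 25 tested YAP and TEAD targets 11 fell and 5 rose, CYR61, a matricellular protein, to 9.21 FPKM, against 18.3 in siNON dex cells.

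Of the remaining lists, those on p53, hypoxia, the mesenchymal and epithelial states, matrix proteases and metallothioneins are given by their counts. Under dex 11 of 23 tested p53 targets fell and 5 rose, 6 of 26 hypoxia and glycolysis genes fell and 4 rose, and 2 of 17 mesenchymal genes fell and 3 rose. Over all genes tested 19.3% fell and 18.0% rose, and the hypoxia and mesenchymal counts lay near or below these shares. Matrix proteases and their inhibitors were called lower in 4 and higher in 4 of 11 tested cases. Epithelial genes were called lower in 4 and higher in 1 of 13, and metallothioneins lower in 2 and higher in 0 of 4. Glycolytic enzymes such as LDHA and PGK1 were not called, while ADM, a vasodilator peptide, had 20.5 FPKM in siIRF2BP2 and 42.2 in siNON dex cells.

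The knockdown was also compared under the other treatments. Under vehicle, 2910 genes (21.1%) were called lower and 2609 (18.9%) higher in the authors' deposited table, and 2120 of the 2660 dex falls (79.7%, or 72.9% of the vehicle falls) and 1754 of the 2479 dex rises (70.8%, or 67.2% of the vehicle rises) were shared. Calls ran in opposite directions for 10 genes that fell and 15 that rose under dex. Under TNF 22.3% of the tested genes were called lower and 22.6% higher, and under dex plus TNF 21.1% and 20.8%, in the authors' deposited table. Of the dex falls 1596 of 2660 were called lower under all 4 treatments, and of the dex rises 1198 of 2479 were called higher under all 4. Among changes of at least 2-fold under dex this was so for 394 of 499 falls and 119 of 236 rises. The 4 comparisons share no library, and across the 13778 genes, which are not independent replicates, the log2 fold changes under dex correlated with those under vehicle (Pearson r = 0.84), TNF (0.77) and dex plus TNF (0.82).

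Genes whose knockdown effect under dex lay farthest from that under vehicle were 6 in each direction. Dex raised 8 of the 12 with siIRF2BP2 and 10 with siNON in the authors' deposited table. All 12 were picked from the same columns as these dex responses, and the share of all tested genes raised by dex was not computed. Farthest above were RRAD, HSD11B2, CAPN8, AQP3, CDH16 and HES2. HSD11B2, the enzyme that inactivates cortisol, had 2.72 FPKM in siIRF2BP2 and 1.84 in siNON dex cells, against 0.170 and 0.400 under vehicle. AQP3, a water and glycerol channel, had 23.1 and 30.0 FPKM under dex and 4.17 and 18.0 under vehicle, and CDH16, an epithelial cadherin, 4.87 and 1.99 under dex and 0.368 and 0.492 under vehicle, siIRF2BP2 first. In the authors' deposited table the dex responses with siIRF2BP2 and siNON were 5.19 and 3.15 for RRAD, a small GTPase, 4.01 and 2.22 for HSD11B2, 2.73 and 0.95 for the calpain CAPN8, 2.55 and 0.82 for AQP3, 3.82 and 2.11 for CDH16, and 3.28 and 1.59 for the repressor HES2. All 6 had the higher dex response with siIRF2BP2, which follows from the rule, as the responses share columns with the knockdown comparisons. Farthest below were PRR26, C5AR2, FOXQ1, SCNN1G, LINC00473 and NR4A2. FOXQ1, a forkhead factor, had 5.06 FPKM in siIRF2BP2 and 20.2 in siNON dex cells, against 3.61 and 4.48 under vehicle. SCNN1G, a subunit of the epithelial sodium channel, had 0.098 and 0.20 FPKM under dex and 0.001 in both vehicle columns, and C5AR2, a complement receptor, 0.321 and 0.579 under dex and 0.041 and 0.020 under vehicle, siIRF2BP2 first. The non-coding LINC00473 had 0.401 and 0.979 FPKM under dex and 0.934 and 0.823 under vehicle, while the whole span of PRR26 lies within that of another gene. The knockdown change under vehicle was not called for RRAD, CDH16, PRR26, C5AR2, SCNN1G and LINC00473 in the authors' deposited table. For SCNN1G the vehicle values lie at the last digit given. With pooled columns, none of the differences between treatments could be tested.

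HEK293-GR cells, a kidney-derived line made to express the glucocorticoid receptor, gave the same knockdown under dex with 1 column per library. Columns of 3 of the 4 labelled replicates per group were used, and the fourth was not analysed here. IRF2BP2 had 9.64, 11.1 and 10.4 FPKM in the siIRF2BP2 dex libraries and 20.6, 20.0 and 19.3 in the siNON dex libraries, which do not overlap. Its log2 fold change was -0.94 ± 0.08 (limma, SE, n = 3 libraries per group, adjusted p = 3.31e-06). Of 15535 genes tested, 17.5% were called lower and 22.5% higher by limma at an adjusted p under 0.05, which was 2712 and 3491 genes. Leaving out siNON replicate 3 reduced the falls to 1702. Of the 499 genes with 2-fold falls in A549 under dex, 422 were tested in HEK293-GR, where 161 (38.2%) were called lower and 48 (11.4%) higher. Of the 236 with 2-fold rises, 182 were tested, and 75 (41.2%) were called higher and 10 (5.5%) lower. Across the 13066 genes tested in both lines, which are not independent replicates, the log2 fold changes correlated with r = 0.28.

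INSIG1 and TGFA were called lower in both lines, and FOSB was called in opposite directions. In HEK293-GR cells 17 of the 33 cholesterol and fatty acid synthesis genes were called lower and 3 higher. INSIG1 had 23.7, 25.4 and 22.1 FPKM in the siIRF2BP2 dex libraries and 41.3, 39.7 and 38.6 in the siNON dex libraries (log2 fold change -0.75 ± 0.07, SE, limma adjusted p = 8.03e-06). HMGCS1, which fell in A549, had 16.7 ± 1.23 FPKM in siIRF2BP2 and 17.8 ± 0.624 FPKM in siNON dex cells (SD, n = 3 each) and was not called (limma adjusted p = 0.377). TGFA stood at 1.32 ± 0.183 FPKM in siIRF2BP2 and 3.29 ± 0.097 FPKM in siNON dex cells (SD, n = 3 each; limma adjusted p = 1.13e-05). EGR1, with 6.58 ± 0.699 FPKM in siIRF2BP2 and 9.03 ± 0.372 FPKM in siNON dex cells (SD, n = 3 each), changed by -0.46 ± 0.15 (SE, limma adjusted p = 0.0261). FOSB, however, had 1.44, 1.70 and 1.65 FPKM in the siIRF2BP2 dex libraries and 0.891, 1.03 and 0.898 in the siNON dex libraries, all higher with siIRF2BP2 (0.70 ± 0.16, SE, limma adjusted p = 0.00286). ATF3 (0.50 ± 0.10), KLF6 (0.55 ± 0.07) and CXCL8 (1.11 ± 0.19), which fell in A549, were also called higher in HEK293-GR cells (log2 fold change ± SE, limma adjusted p = 0.00156, 9.89e-05 and 0.000643). Of the 20 immediate early genes 4 were called lower and 5 higher in HEK293-GR cells, near the shares over all genes tested there (17.5% and 22.5%). PTGS2, with 0.319 ± 0.033 FPKM in siIRF2BP2 and 0.273 ± 0.031 FPKM in siNON dex cells (SD, n = 3 each), was not called there (limma adjusted p = 0.473). Of 21 tested interferon-stimulated genes 7 were called higher and 2 lower, DTX3L by 0.49 ± 0.08 (SE, limma adjusted p = 0.000703). The difference between the lines was not tested, since the A549 columns are pooled.

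**Figure D5:**
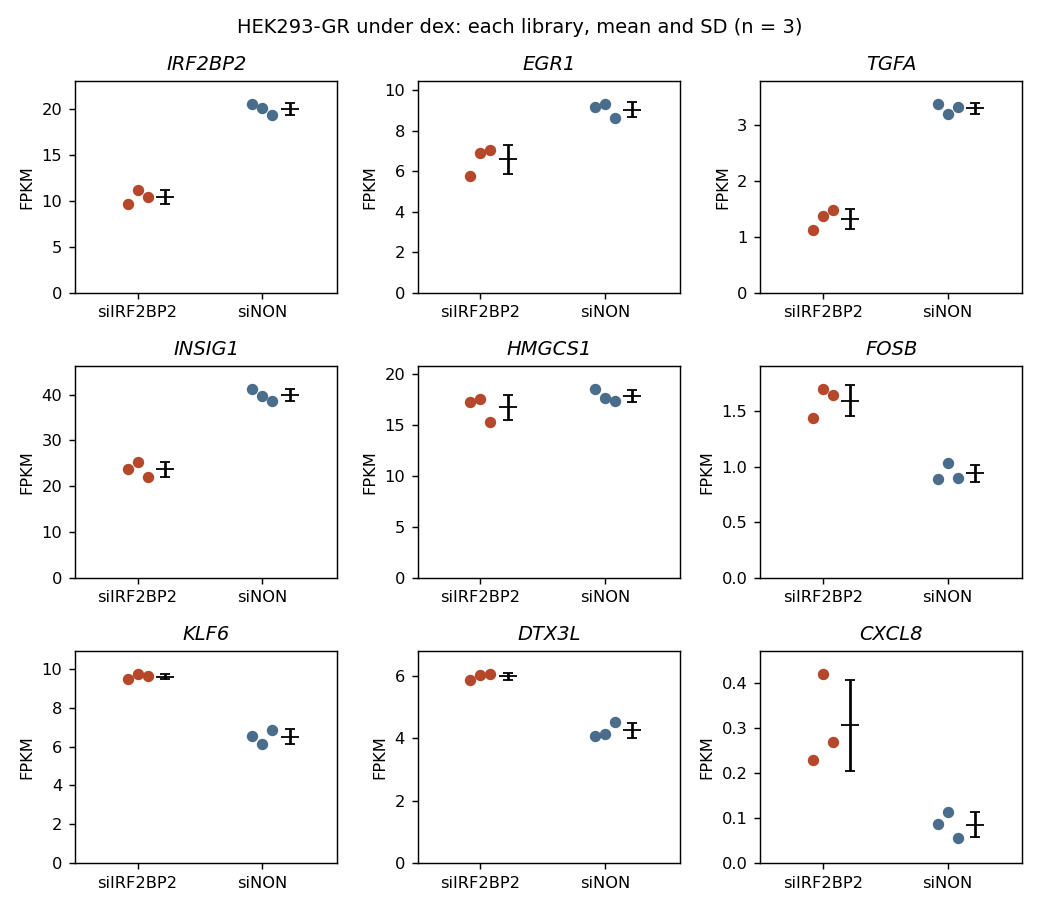
FPKM (y axis, from 0) of 9 genes in HEK293-GR cells under dex, siIRF2BP2 left and siNON right (x axis); each point is 1 library and the black mark with bars the mean and SD (n = 3). IRF2BP2, EGR1, TGFA and INSIG1 are lower in all siIRF2BP2 libraries, the HMGCS1 libraries overlap, and FOSB, KLF6, DTX3L and CXCL8 are higher in all of them.

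IRF2BP2 binding sites were known here from chromatin immunoprecipitation in HEK293-GR cells after 1 h of vehicle or 100 nM dex (2 samples each), not from A549 and not at the 6 h of the RNA. A peak of either kind had its centre within 10 kb of the start of 26 of the 499 genes with 2-fold falls in A549 (5.21%), of 11 of the 236 with 2-fold rises (4.66%), and of 289 of all 13778 tested (2.1%). Within 100 kb the shares were 20.24%, 14.41% and 15.45%. Peaks lay at the starts of FOS, FOSB and NR4A3, which fell. The vehicle peak at FOS spans chr14:75745222-75745564 (hg19), with its centre 88 bases before the start. The one at FOSB spans chr19:45970832-45971174, with its centre 250 bases before the start, and that at NR4A3 spans chr9:102583869-102584211, with its centre 97 bases before the start. With dex NR4A3 had a peak with its centre 30 bases before the start, and FOS and FOSB had none within 10 kb. DUSP10 had peaks in both vehicle and dex cells, their centres 231 and 247 bases before its start. No peak of either kind lay within 10 kb of the starts of EGR1, PTGS2, GDF15 or ABCA1. Peaks also lay at genes that were not called, such as CHAC1 and TEAD1, whose vehicle peaks have their centres 14 bases before and 16 bases after the start.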

How the data were processed

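Polyadenylated RNA from A549 and HEK293-GR cells was sequenced. The authors deposited FPKM per transcript, pooled over 3 replicates per A549 group and per library in HEK293-GR cells, with log2 fold changes and p-values adjusted as FDR in the A549 table, per the file headers. IRF2BP2 peaks were deposited with a score of 1 throughout, so only positions were used. Per the submitters' processing notes, tools were FastQC, Trimmomatic 0.33, Bowtie2, TopHat2, HOMER and edgeR for RNA and Bowtie 0.12.9, HOMER 4.10.3 and bedtools for peaks, on build hg19; their order, and the test behind the FDR, are not given in the sources used here.

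For each symbol the transcript with the highest mean FPKM times length was kept. Genes with at least 1 read per M mapped in 1 of the 2 dex columns were tested, and called at the authors' FDR under 0.05; pooled ratios used a pseudocount of 0.1. Intervals on reads are exact Poisson at 95%. In HEK293-GR cells limma 3.58.1 (R 4.3.3) was fitted to log2(FPKM + 0.1) of 12 libraries (8 residual degrees of freedom) over 15535 genes with at least 10 reads in 3 libraries, with Benjamini-Hochberg adjustment, and was tested on simulated data; replicate 4 was not analysed here. Such p-values measure the spread between these libraries, which may be technical.

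The genes named were the 12 largest rises and 12 largest falls with at least 5 reads per M mapped, leaving out non-coding, antisense and LOC names and genes lying mostly within another gene, up to 6 per list, and 6 in each direction farthest from vehicle; other list members named were chosen after their values were seen. The members and lists were chosen with earlier results of these data known. Fewer than 80% of the called and tested genes had a RefSeq promoter entry, so a comparison of motif shares between gene sets is void and none is given. The kit is not stated to keep strand, so overlapping genes are uncertain.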

Additional observations from a re-analysis of the deposited data

How the results depend on the processing

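The A549 counts rest on columns pooled over replicates. No paired analysis was possible in A549 because the replicates were pooled, and no replicate could be left out. At least 2-fold changes numbered 499 lower and 236 higher, and 517 lower and 225 higher after centring on the median gene. An FDR under 0.01, no filter, a minimum of 5 reads per M mapped and the longest transcript gave 2054 to 2762 lower and 1769 to 2557 higher. The median log2 ratio of pooled FPKM was 0.14 with a pseudocount of 0.01 and 0.03 with 1. Low genes moved most with the pseudocount: MARCH4, at -2.90 in the authors' deposited table, was -0.55 at 0.1 and -0.07 at 1. In HEK293-GR cells, leaving out each replicate gave 1702 to 2633 lower and 2447 to 3079 higher. With the replicate block limma called 2367 lower and 3126 higher; same-numbered libraries deviated with correlations of 0.05, -0.06 and 0.09, so the numbers do not pair the libraries. Fitting the 2 dex groups alone called 3563 lower and 4299 higher.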
